A study of Mus musculus with 10 samples.

Results

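The promoter regions described here carried a called RNA polymerase II peak in both libraries of T cells restimulated for 2 h and in neither library of cells that had not been restimulated (NR). Promoter peaks of 6 libraries were merged into regions wherever they overlapped by at least 1 bp, which gave 10991 regions, and 333 of them (3.03%) met the rule. They were selected on measured peaks at NR and 2 h, so their absence at NR and presence at 2 h are the rule and not a result, and no test of that contrast is given. The reverse rule, a peak in both NR libraries and in neither 2 h library, was met by 19 of 10991 regions (0.173%). The 333 regions were divided by the libraries taken at 30 min, which the rule did not use: 94 had a peak in no 30 min library, 204 in 1 of 2 and 35 in both.

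The cells were primary Th1 cells, helper T cells that make interferon gamma, from Balb/c mice of the DO11.10 strain, which carry a transgenic T cell receptor for ovalbumin. All 3 groups shared the same preparation, per the labels' protocols: CD4+ T cells were primed toward Th1, expanded with an interleukin 2 analogue and then rested without it. NR cells received no further stimulus, and the other groups were restimulated for 30 min or 2 h with plate-bound anti-CD3 (5 µg/ml) and soluble anti-CD28 (2.5 µg/ml). Chromatin was precipitated with antibody 8WG16 (ab817) against the polymerase, in 2 libraries per group, and the labels do not say whether the 2 came from separate animals or cultures. The bulk signal cannot tell more polymerase in each cell from more cells carrying it.

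RNA polymerase II, the enzyme that transcribes protein-coding and most microRNA genes, gives a sharp ChIP peak where it is held near the start site and a broad one where it moves through the gene body. Triggering of the T cell receptor and CD28 activates the transcription factors NFAT, AP-1 and NF-kB. Immediate early genes, such as those of the Egr and Fos families, are transcribed within minutes from factors already in the cell, and cytokine and chemokine genes follow. Antibody 8WG16 binds the carboxy-terminal repeat of the polymerase mainly in its form without phosphate, so elongating polymerase may be seen less well.

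The promoters of 6 cytokine and chemokine genes are shown because that list had the highest share of new regions among those examined, and that of Fosb is shown as an immediate early gene. Each run is the 250 bases before the start site, from RefSeq on GRCm38.p6, the assembly that mm10 names, written 5′ to 3′ on the gene's strand. Capitals mark every match to the motif letters searched, on either strand: the letters TATAAA of the promoter box of that name, the NFAT core GGAAA, the NF-kB site GGANTTTCC, the Sp1 site GGGCGG, the Egr site GCGNGGGCG, the NRF1 site GCGCNTGCG, the ETS core CCGGAA, the AP-1 site TGANTCA, the cyclic AMP response element TGACGTCA and the E-box CACGTG. The NF-kB letters contain the NFAT core on the opposite strand, and the Egr, NRF1 and Sp1 letters can share bases. The first 3 genes had no 30 min peak, the next 2 had one in a single 30 min library, and the last 2 had one in both.
Il2 (chr3:37125955-37126204, minus strand): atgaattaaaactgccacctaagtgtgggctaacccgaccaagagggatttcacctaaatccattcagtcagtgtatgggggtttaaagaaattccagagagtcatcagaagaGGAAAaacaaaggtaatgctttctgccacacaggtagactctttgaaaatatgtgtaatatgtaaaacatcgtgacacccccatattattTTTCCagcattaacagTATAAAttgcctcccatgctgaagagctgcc
Ccl1 (chr11:82179813-82180062, minus strand): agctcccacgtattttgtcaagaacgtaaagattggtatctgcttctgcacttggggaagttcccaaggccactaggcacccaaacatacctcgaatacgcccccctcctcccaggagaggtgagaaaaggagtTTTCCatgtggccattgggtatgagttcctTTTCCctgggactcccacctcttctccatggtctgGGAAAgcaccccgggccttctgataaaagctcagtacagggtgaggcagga
Il13 (chr11:53634703-53634952, minus strand): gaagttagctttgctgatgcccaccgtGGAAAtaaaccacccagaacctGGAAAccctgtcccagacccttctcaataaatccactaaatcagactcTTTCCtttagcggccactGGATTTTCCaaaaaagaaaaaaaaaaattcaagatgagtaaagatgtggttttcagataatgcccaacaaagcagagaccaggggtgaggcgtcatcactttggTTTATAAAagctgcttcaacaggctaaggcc
Csf2 (chr11:54249900-54250149, minus strand): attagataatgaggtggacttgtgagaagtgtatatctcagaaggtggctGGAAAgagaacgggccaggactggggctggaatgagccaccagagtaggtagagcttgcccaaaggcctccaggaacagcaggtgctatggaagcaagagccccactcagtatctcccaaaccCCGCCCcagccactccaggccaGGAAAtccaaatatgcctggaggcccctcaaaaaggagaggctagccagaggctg
Il3 (chr11:54267280-54267529, minus strand): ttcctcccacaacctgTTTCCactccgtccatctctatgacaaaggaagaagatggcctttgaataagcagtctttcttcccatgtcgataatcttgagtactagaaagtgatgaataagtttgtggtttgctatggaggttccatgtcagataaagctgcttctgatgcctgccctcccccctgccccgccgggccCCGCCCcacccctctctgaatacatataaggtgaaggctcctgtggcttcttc
Ccl3 (chr11:83649379-83649628, minus strand): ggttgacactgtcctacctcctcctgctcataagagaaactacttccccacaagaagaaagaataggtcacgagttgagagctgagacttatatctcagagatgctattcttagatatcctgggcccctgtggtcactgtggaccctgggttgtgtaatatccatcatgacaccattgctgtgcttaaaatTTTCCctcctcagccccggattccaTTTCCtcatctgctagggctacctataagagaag
Fosb (chr7:19310046-19310295, minus strand): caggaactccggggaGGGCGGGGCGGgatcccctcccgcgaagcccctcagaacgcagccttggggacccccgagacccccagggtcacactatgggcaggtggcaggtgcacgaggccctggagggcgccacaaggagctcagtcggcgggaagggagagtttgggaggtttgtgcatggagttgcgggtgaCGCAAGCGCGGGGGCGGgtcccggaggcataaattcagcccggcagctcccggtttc
TATAAA began 31 bases before the Il2 start site and 29 bases before that of Il13, and GGAAA or its complement stood in the windows of Il2, Ccl1, Il13, Csf2, Il3 and Ccl3. The Fosb window held no GGAAA and carried 3 Sp1 matches, 1 Egr match and 1 NRF1 match. A match describes letters only, and factor binding was not measured.

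Some of the longest new regions lay over microRNA host genes, and the mature microRNAs inside them are shown with the seed, bases 2 to 8, in capitals. Those of the miR-17-92 cluster came from the Mir17hg region, which had a peak in both 30 min libraries, and miR-155 from the Mir155hg region, which had one in 30 min replicate 2 alone. Sequences are from RefSeq.
mmu-miR-17-5p (chr14:115043684-115043706, plus strand): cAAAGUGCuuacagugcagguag
mmu-miR-20a-5p (chr14:115044183-115044205, plus strand): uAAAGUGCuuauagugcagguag
mmu-miR-18a-5p (chr14:115043867-115043889, plus strand): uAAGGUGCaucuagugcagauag
mmu-miR-19a-3p (chr14:115044048-115044070, plus strand): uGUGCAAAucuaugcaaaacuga
mmu-miR-19b-3p (chr14:115044358-115044380, plus strand): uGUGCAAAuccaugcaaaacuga
mmu-miR-92a-3p (chr14:115044476-115044496, plus strand): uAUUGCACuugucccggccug
mmu-miR-155-5p (chr16:84714143-84714165, plus strand): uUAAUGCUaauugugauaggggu
The members miR-17-5p and miR-20a-5p share the seed AAAGUGC, and miR-19a-3p and miR-19b-3p share GUGCAAA, whereas miR-18a-5p, miR-92a-3p and miR-155-5p each have their own. The polymerase data measure the host locus and not the mature microRNAs.

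The lists held 15330 to 23299 peaks per library, of which 9074 to 10680 lay within 1000 bp of a start site. Depth was not equal. The lowest background behind a peak, converted to reads, was 0.659, 1.57 and 2.48 in replicate 1 of NR, 30 min and 2 h, and 5.91, 4.67 and 5.55 in replicate 2, so the replicate 1 libraries were the shallower ones at each time. The weakest promoter summit held 5 reads in NR replicate 1 and 23 in NR replicate 2. Of 9 T cell markers, 8 or 9 had a promoter peak in each library, as did Cd4 and Zbtb7b, and Tbx21, Ifng, Il12rb2 and Stat4 of 5 Th1 markers had one in all 6. None of 5 B cell or 4 erythroid and platelet markers had a peak in any library, and of 7 myeloid markers only Cd68 had one. Cd8a, Ncr1 and Klrb1c had none, and 0 to 2 of 5 CD8 T and NK cell markers had a peak per library. Of the markers of other helper lineages, Il17a and Foxp3 had none, and Il4 and Il13 are among the new regions.

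The count of new regions rested mainly on NR replicate 2, the deeper library of the group that had to lack a peak. Without it 1217 regions met the rule, against 344 without NR replicate 1. Without 2 h replicate 1 or 2 h replicate 2 the rule gave 782 and 582 regions. With all 6 libraries, 573 further regions had no NR peak and a peak in 1 of the 2 h libraries, 154 in replicate 1 and 419 in replicate 2. The reverse count rose from 19 to 175 without NR replicate 1, to 60 without NR replicate 2 and to 112 without 2 h replicate 2. When each list was cut to the length of the shortest, 9074 promoter peaks, 244 regions met the rule and 123 the reverse, and only 79 of the 333 were still among the 244. By −log10 q, the measure that was cut on, the median percentile of the 333 in the 2 h lists was 11.5.

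At 30 min the 2 libraries differed in how many of the new regions they held. A peak was called in 36 of the 333 regions (10.8%) in 30 min replicate 1 and in 238 (71.5%) in 30 min replicate 2. Over all 10991 regions the shares were 73.9% and 94.8%. Of the 204 regions with a peak in 1 library, 203 had it in replicate 2 and 1, at Sall2, had it in replicate 1. Replicate 1 was the shallower library, and the part of depth in this split was not tested. Without 30 min replicate 2, 318 of 357 new regions had no 30 min peak. The 573 regions with a single 2 h peak had a 30 min peak in 1.40% (replicate 1) and 38.7% (replicate 2). Among the 94 regions with no 30 min promoter peak, 7 held a 30 min summit in the authors' list of all peaks.

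The new regions were short and low in rank. The median called length at 2 h was 393 bp in replicate 1 and 677 bp in replicate 2, against 1079 and 1266 bp over all regions with a peak. Length at 2 h followed the 30 min class in both libraries: the medians were 315 and 557.5 bp with no 30 min peak, 399 and 712.5 bp with 1, and 620 and 890 bp with both. The fold enrichment of each peak, the authors' ratio to local background, was turned into a percentile within its own promoter list. The median percentile of the new regions was 12.5 and 11.4, and it was 9.33 and 9.42, 13.7 and 11.7, and 29.0 and 19.4 across the 3 classes in the same order. In replicate 1, 278 of 333 regions lay under the 25th percentile, and in replicate 2 280 did. Only 20 and 15 lay in the upper 50 percentiles. Peaks of more than 1 kb numbered 43 in replicate 1 (12.9%) and 97 in replicate 2 (29.1%), against 54.9% and 66.6% of all regions with a peak. Since presence at 2 h chose the regions, and the 30 min class is itself a set of peak calls, these values are a description. Whether the order of the classes reflects how readily longer regions are called at 30 min was not tested. Chosen without 2 h replicate 2, the regions of the rule had a median length of 335.5 bp in the library left, and without 2 h replicate 1 a median percentile of 7.18.

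**Figure D1:**
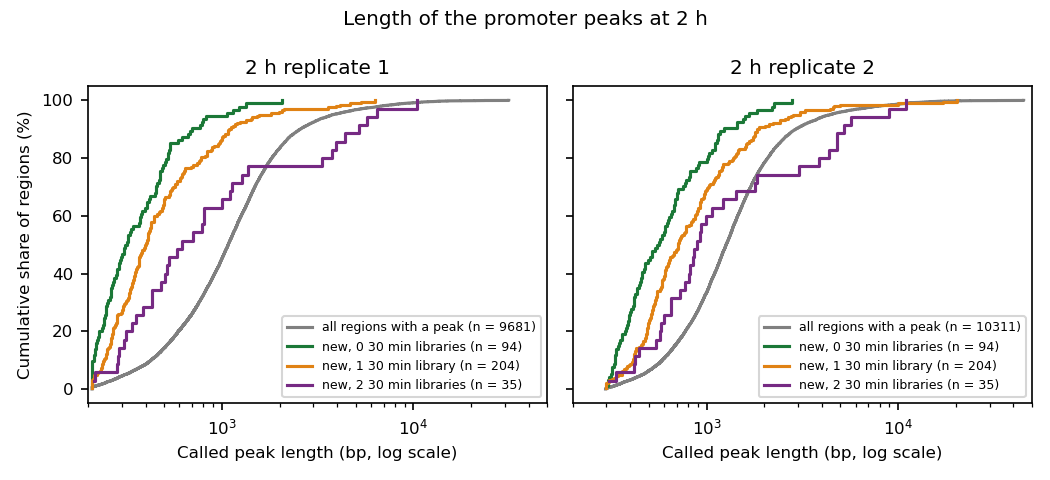
Cumulative share of regions (vertical axis, %) by called promoter peak length at 2 h (horizontal axis, bp, log scale), in replicate 1 (left) and replicate 2 (right), for all regions with a peak (grey) and for new regions with a peak in 0, 1 or 2 30 min libraries. The curve of the 94 regions without a 30 min peak lies farthest left in both panels, with medians of 315 and 557.5 bp, and the curve of the 35 regions with both 30 min peaks crosses that of all regions at its long end.

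The 2 h libraries ranked the new regions less alike than they ranked regions at large. Across the 333 regions Spearman's rho between the 2 libraries was 0.596 for length and 0.592 for the fold enrichment percentile, and across the 9513 regions with a peak in both it was 0.914 and 0.916. These coefficients describe regions that share libraries, and the 333 span a narrow range of values. Replicate 2 gave the longer peak in 300 of 333 regions, with a median ratio of 1.58, against 1.22 over the 9513. The 35 regions with both 30 min peaks had a rho of 0.827 for length, the 94 with none 0.463.

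**Figure D2:**
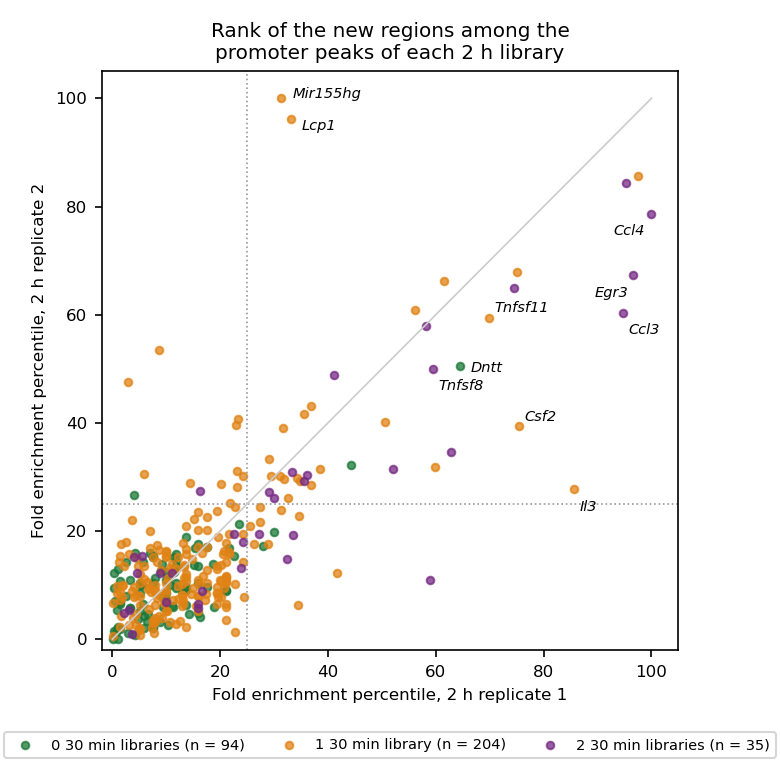
Fold enrichment percentile of each new region among the promoter peaks of 2 h replicate 1 (horizontal axis) and 2 h replicate 2 (vertical axis), coloured by the number of 30 min libraries with a peak, with dotted lines at the 25th percentile and a grey line of equal rank. Most points sit in the lower left corner, Ccl4, Ccl3 and Egr3 lie at the right above the 60th percentile in both libraries, and Mir155hg and Lcp1 rank at 31.4 and 33.1 in replicate 1 and at 100 and 96.1 in replicate 2.

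Among the 35 regions present in both 30 min libraries, the longest belonged to Egr3, which encodes a zinc finger transcription factor induced by the T cell receptor. Its called length was 14771 and 17173 bp at 30 min (replicates 1 and 2) and 10455 and 10963 bp at 2 h, so both 30 min peaks were longer than both 2 h peaks. The peaks covered 100% of the gene in all 4 of these libraries, and the fold enrichment percentile was 99.4 and 99.5 at 30 min and 96.5 and 67.3 at 2 h. Nr4a2, an orphan nuclear receptor, had 785 and 3693 bp at 30 min and 3740 and 4811 bp at 2 h. Fosb, a Fos family subunit of AP-1, had 505 and 789 bp, then 528 and 653 bp, with the 2 times overlapping. Fosb thus stayed under 1 kb in each library while Egr3 stayed over 10 kb.

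The chemokine genes Ccl3 and Ccl4, whose products attract other leukocytes, were also present at 30 min. Ccl4 had 4861 and 5276 bp at 30 min and 5205 and 5682 bp at 2 h. Its 2 h percentile was 100 in replicate 1 and 78.7 in replicate 2. Ccl3 had 1283 and 3769 bp at 30 min and 3952 and 3843 bp at 2 h, both of the latter longer than both of the former, with percentiles of 94.6 and 60.4. The 2 h peaks covered 100% of both genes in both libraries. Tnfsf8, the ligand of CD30, had the widest gain in length among the members named from this class, with 250 and 1932 bp at 30 min and 5736 and 5197 bp at 2 h. Tnfrsf9, the costimulatory receptor 4-1BB, overlapped between the times at 329 and 2912 bp, then 788 and 3056 bp.

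Mir17hg, the host of the miR-17-92 cluster shown above, had 872 and 8649 bp at 30 min and 6490 and 8967 bp at 2 h. Asb2, an adaptor of ubiquitin ligases, had 704 and 5408 bp, then 4369 and 4800 bp. Spsb2, another adaptor with a SOCS box, had 278 and 2783 bp, then 3330 and 4367 bp. Mmp14, a membrane-bound matrix protease, had 266 and 2273 bp, then 1276 and 1826 bp. In each of these, the 30 min libraries differed from each other more than the 2 h libraries did. The remaining members named by fold enrichment rank were Fam110a, Traf3, Tank and Bcl2a1a. Traf3 and Tank, adaptors of TNF receptor signalling, had 1127 and 858 bp and 434 and 571 bp at 2 h. Bcl2a1a, a survival factor of the Bcl-2 family with near-identical copies that may share reads, had 356 and 335 bp, and its percentile was 58.8 in one library and 11.0 in the other. Over the 35 regions, both 2 h peaks were longer than both 30 min peaks in 7, the reverse held in 2 (Egr3 and Slc2a4rg-ps), and the times overlapped in 26. The 35 were chosen on 2 h peaks, and no such count was made over all regions. The median promoter summit held 28 reads in 30 min replicate 1 and 56 in 2 h replicate 1. The counts are therefore a description.

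**Figure D3:**
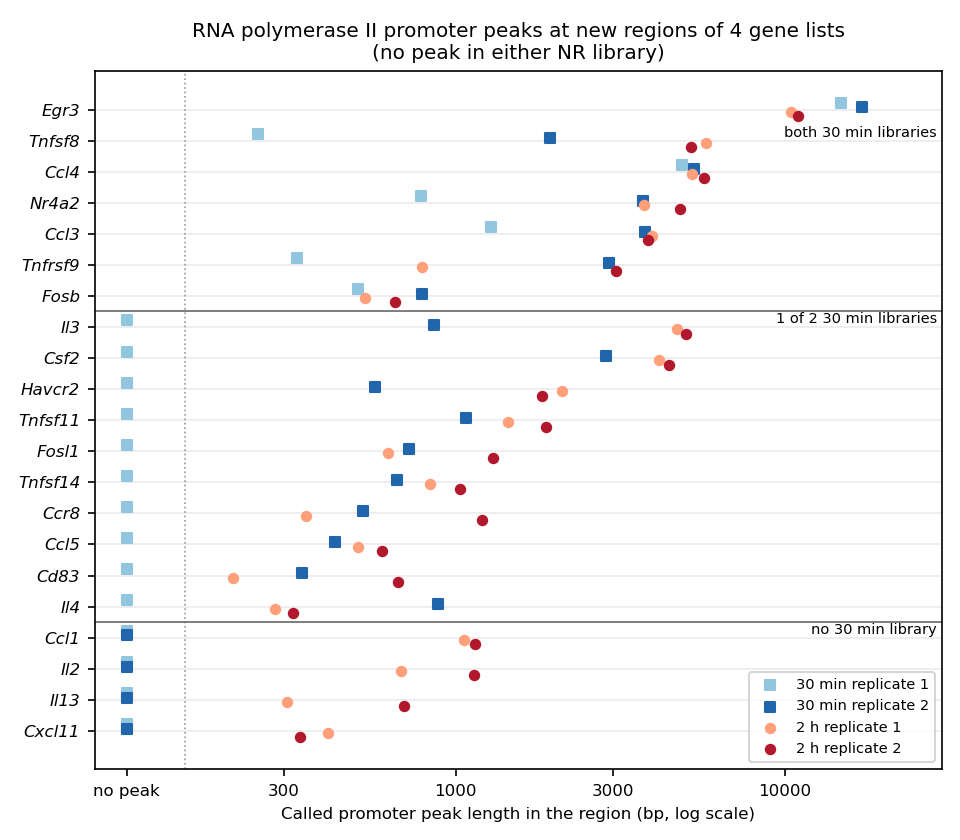
Called promoter peak length (horizontal axis, bp, log scale, with libraries without a peak placed at the left of the dotted line) in the 4 restimulated libraries for the new regions of the immediate early, cytokine and chemokine, TNF ligand and surface receptor lists, ordered by the number of 30 min libraries with a peak and by length at 2 h. Egr3 is longer at 30 min (14771 and 17173 bp) than at 2 h, the Ccl4 times overlap (4861 to 5682 bp), and Ccl1, Il2, Il13 and Cxcl11 have a peak at 2 h alone.

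In the class with a single 30 min peak, all of the members named below had it in replicate 2. The linked cytokine genes Il3 and Csf2, which encode interleukin 3 and the growth factor GM-CSF, were among its longest. Il3 had no peak and 856 bp at 30 min, and 4683 and 4995 bp at 2 h. Csf2 had no peak and 2859 bp at 30 min, and 4135 and 4436 bp at 2 h. At 2 h the Il3 peaks covered 100% of the gene in both libraries and those of Csf2 95.0% and 100%. The 2 h libraries differed in rank: the percentile of Il3 was 85.6 and 27.7, and that of Csf2 75.4 and 39.4. Il4, which encodes the Th2 cytokine interleukin 4, was near the lower limit, with 884 bp in 30 min replicate 2 and 282 and 320 bp at 2 h, and Il4 had an NR replicate 2 peak outside the region. Ccl5, which encodes the chemokine RANTES, had 429 bp, then 503 and 597 bp.

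Ligands of the TNF family, surface receptors and Fosl1 made up the other listed members of the class described here. Tnfsf11, the ligand RANKL, had no peak and 1074 bp at 30 min and 1442 and 1874 bp at 2 h, at percentiles of 69.8 and 59.5. Tnfsf14, the ligand LIGHT, had no peak and 662 bp, then 833 and 1028 bp. Havcr2, the inhibitory receptor TIM-3, had no peak and 569 bp, then 2103 and 1828 bp. In all 3 both 2 h peaks were longer than the 30 min replicate 2 peak. Ccr8, the receptor of the chemokine Ccl1, had 521 bp in 30 min replicate 2 and 351 and 1200 bp at 2 h. Cd83, a surface molecule of activated lymphocytes, had 340 bp, then 210 and 669 bp. Fosl1, a Fos family member, had 722 bp, then 622 and 1300 bp. In the last 3 the times overlapped.

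At the pair of longest regions of this class the 2 h libraries differed widely. Mir155hg, the host of miR-155, had 1600 bp in 30 min replicate 2, then 5342 and 17245 bp at 2 h, with percentiles of 31.4 and 100. Lcp1, which encodes the actin-bundling protein L-plastin, had 6958 bp, then 6303 and 20223 bp, with percentiles of 33.1 and 96.1. Psd had 6419 bp in 30 min replicate 2 and 3952 and 4649 bp at 2 h, and its region overlapped the body of Nfkb2, a gene with NR promoter peaks. The forkhead genes Foxn3 and Foxp1 had 908 and 1762 bp and 963 and 2760 bp at 2 h. Other long members were Ndufa4l2 (2051 and 2567 bp), the chromatin remodeller Chd7 (708 and 3285 bp), the serine racemase gene Srr (1148 and 2827 bp) and Ppp1ca (1987 and 1794 bp), a catalytic subunit of protein phosphatase 1. The members named by rank also included Smco4 (1338 and 1216 bp) and Ncs1 (490 and 628 bp), a calcium sensor.

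The 94 regions with no 30 min peak held the gene of interleukin 2, the growth factor that T cells make on activation. Il2 had 683 and 1135 bp at 2 h, which covered 12.2% of the gene in replicate 1, and its percentile was 8.97 and 12.5. Ccl1, a chemokine gene whose product binds Ccr8, had 1061 and 1143 bp, at percentiles of 18.9 and 5.98. Il13, the Th2 cytokine gene next to Il4, had 307 and 697 bp, and Cxcl11, a ligand gene of Cxcr3, had 408 and 337 bp at percentiles of 0.815 and 1.78. The interleukin genes Il31 (695 and 752 bp) and Il15 (380 and 474 bp), named after their values were seen, were in the same class. None of these cytokine peaks lay above the 25th percentile in either library.

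Dntt, the gene of terminal deoxynucleotidyl transferase, which is known from lymphocyte precursors, was the longest member of that class on average and the highest in rank, with 2067 and 2247 bp and percentiles of 64.5 and 50.4. Its peaks lay 704 bp from the start site, and 1 NR summit of each replicate fell inside the region. Ikbke, a kinase of the interferon and NF-kB pathways, had 1230 and 1229 bp at percentiles of 6.61 and 4.67. Mapk12, a p38 kinase, had 1332 and 1845 bp, and Marcks, a substrate of protein kinase C, had 794 and 1590 bp. The libraries differed more at Spns2, a sphingosine 1-phosphate transporter, with 445 and 2802 bp, and at Islr, with 294 and 2202 bp. Ptpn3, Pla2g12a and Akap7 had 765 to 1543 bp. By rank the class also named Sox5, a second Ncs1 region, Stra6, Usp31 and Samd4, with percentiles from 15.3 to 44.3. Slc7a11, the cystine exchanger, had 221 and 898 bp.

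Of the 10419 genes with a promoter peak in any library, 324 (3.11%) had a new region, and the share differed between gene lists. Among secreted cytokines and chemokines it was 10 of 22 (45.5%), and 10 others had a peak in both NR libraries, Ifng, Il10 and Il21 among them. Among TNF superfamily ligands it was 3 of 7, among immediate early genes 4 of 31, 25 of which had both NR peaks, and among surface receptors of activated T cells 4 of 43. By symbol, 6 of 13 interleukin genes and 4 of 4 CC chemokine ligand genes with any peak were new. These denominators hold only genes with a peak in some library, and Il2, Il13, Ccl1 and Cxcl11 entered them through 2 h peaks alone. Il3, Csf2, Ccl3, Ccl4, Ccl5, Tnfsf8, Tnfsf11 and Tnfsf14 had no NR peak and entered through 30 min and 2 h peaks. Each of the CC chemokine genes counted thus entered through restimulated cells alone. The full lists held 37 cytokine and chemokine genes and 15 TNF ligand genes. Listed genes without a peak in any library, such as Il5, Ccl9, Ccl17, Ccl20, Ccl22, Tnf and Lta, are outside these shares. Transcription factors of activated and helper T cells gave 2 of 58 (Foxp1 and Pou2af1), feedback regulators 2 of 50 (Dusp16 and Sik1), calcium and cyclic nucleotide signalling genes 2 of 24 (Pde4a and Calm3), NF-kB genes 1 of 24 and Bcl-2 family genes 1 of 18 (Bcl2a1a in both), and amino acid supply genes 1 of 33 (Slc7a11). These shares are near the 3.11% of all genes for the transcription factor, feedback, NF-kB and amino acid lists. A new region did not mean a gene without an NR peak. Nr4a2, Foxp1, Dusp16 and Calm3 had peaks in both NR libraries outside their new region. Il4, Tnfrsf9 and Sik1 had one in NR replicate 2. None of these genes was new when counted by gene in place of region. Pou2af1, a coactivator of octamer factors, had 335 and 838 bp at 30 min and 1000 and 770 bp at 2 h. Dusp16, a phosphatase of MAP kinases, had 284 and 480 bp, then 287 and 545 bp. Pde4a, a cyclic AMP phosphodiesterase, had 467 bp in 30 min replicate 2 and 354 and 871 bp at 2 h, and the kinase gene Sik1 had 531 bp, then 307 and 692 bp. The new region of Calm3, a calmodulin gene, lay 941 bp from the start site and had 210 and 416 bp at 2 h alone. Outside that region Calm3 had promoter peaks in both NR and both 30 min libraries. No new region fell to the lists of cholesterol synthesis (26 genes with a peak), glycolysis (20), ribosome biogenesis (33), cell cycle (42), interferon response (37), chaperones (23) or quiescence (19). With lists of equal length 5 of the 10 cytokine and chemokine regions were kept (Ccl3, Ccl4, Ccl5, Csf2 and Il3), 4 of 4 immediate early, 3 of 3 TNF ligand and 1 of 4 receptor regions. The lists were chosen with earlier results known, so these counts are a description.

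**Figure D4:**
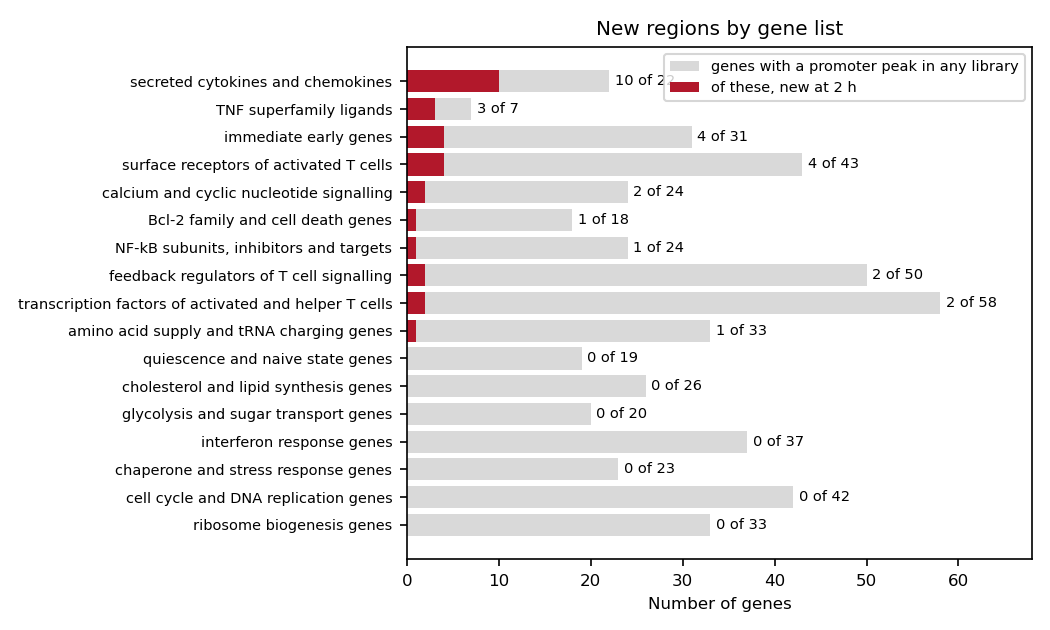
Number of genes with a promoter peak in any library (grey) and with a new region (red) for 17 gene lists, ordered by share. The cytokine and chemokine list, with 10 of 22, and the TNF ligand list, with 3 of 7, stand at the top, and 7 lists have no new region.

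New regions lay next to each other at several cytokine loci. Ccl3 and Ccl4 were separated by 12479 bp, Csf2 and Il3 by 12646 bp and Il4 and Il13 by 15374 bp, all on chromosome 11. In all, 28 pairs of neighbouring new regions lay within 100 kb, a count not made for the other regions. In 9 of those pairs the gap was 104 to 356 bp, mostly within a gene such as Akap7, Ncs1 or Ptpn3, and in 6 of the 9 the 2 pieces differed in their 30 min class. The 333 regions had 320 distinct lead genes. Merging peaks up to 1000 bp apart left 244 new regions, and the regions of Nr4a2, Asb2, Traf3, Il4 and Ikbke were no longer among them.

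Many new regions did not lie over a start site. A 2 h peak covered the start site in 206 of 333 (61.9%), against 9576 of 10479 regions with any 2 h peak (91.4%). The assigned gene had an NR peak elsewhere in 95 (28.5%), for instance at Nr4a2, Foxp1, Ikbke and Traf3. Of the 333, 116 (34.8%) lay within 10 kb of a region with a peak in all 6 libraries, against 30.1% of the other regions not in all 6. Of the same 333, 50 (15.0%) overlapped, or lay within 5 kb past the 3′ end of, another gene with NR promoter peaks, against 11.4% of all other regions. Of the 50, 28 overlapped the body of the other gene and 22 lay past its end, against 374 and 838 of the 10658 other regions. The excess thus lay in the overlaps with a gene body. Among the 66 new regions with a mean 2 h length over 1 kb the pooled count was 18 (27.3%), and other regions of that length were not counted apart. Of the 18, Spsb2 overlapped the glycolytic gene Tpi1, Psd overlapped Nfkb2, Srr overlapped Tsr1, Mmp14 overlapped Mrpl52 and Mir155hg overlapped Mrpl39. For these the peak tables do not tell which gene the polymerase was transcribing. The lead genes were protein coding in 294 regions (88.3%, against 94.5% of regions with any 2 h peak), long noncoding RNA genes in 21 (6.31% against 3.28%), microRNA genes in 10 (3.00% against 1.03%) and small nucleolar RNA genes in 5 (1.5% against 0.449%). The other 3 were transcribed pseudogenes. The small nucleolar RNA regions each overlapped the body of another gene with NR promoter peaks, such as Rps3 and Tbrg4. Some of the microRNA regions did so too, such as at Anxa2 and Chpf2, and others did not. In such overlaps the assigned small RNA gene need not be the one transcribed, so these shares do not show new polymerase at small RNA genes.

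The absence of an NR promoter peak was not always the absence of an NR peak. In the authors' lists of all summits, 23 of the 333 regions (6.91%) held a summit of at least 1 NR library, and 15 held summits of both. Lcp1 held 3 and 5, Mir17hg 2 and 2, Asb2 2 and 2, Ppp1ca 2 and 1, and Mir155hg, Spsb2 and Dntt 1 and 1 (replicates 1 and 2). Egr3 and Foxp1 held 1 summit of NR replicate 2 alone. Ccl3, Ccl4, Csf2, Il3, Il2, Tnfsf8, Nr4a2 and Fosb held none. The converse case was Egr2, a relative of Egr3: it had no NR peak and 7853 and 12325 bp at 30 min and 10168 and 11706 bp at 2 h, but its region joined NR peaks of the neighbouring gene Ado and so missed the rule. Counted by gene in place of region, 268 genes were new, 41 of which, Egr2 included, lay in no new region.

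A RefSeq promoter window of 300 bases, from 250 before to 50 after the start site, overlapped 160 of the 333 regions. Their median ratio of observed to expected CpG was 0.635, between 0.817 in the 5982 windows of regions present in all 6 libraries and 0.384 in all 32851 windows of the table. A ratio under 0.6 was found in 46.3%, 17.3% and 64.2%. The GC content differed less, at 60.5%, 62.0% and 52.7%. The ETS core was present in 12.5% of the new windows, 35.0% of the windows of all 6 libraries and 14.9% of all windows, and the NRF1 site in 5.63%, 17.0% and 6.31%. Both motifs are known from promoters of housekeeping genes. Sp1 letters were in 56.9%, 69.6% and 35.7%, the NFAT core in 56.9%, 58.7% and 61.3%, the AP-1 site in 7.50%, 3.96% and 7.81%, and the TATA box in 6.88%, 5.92% and 13.6%. The NF-kB site was in 6 new windows (3.75%), Il13 among them, against 67 of 5982 and 412 of 32851. The Egr site was in 11.3%, 11.0% and 5.55%, and by class in 3 of 42, 8 of 99 and 7 of 19 windows with 0, 1 and 2 30 min peaks. The cyclic AMP response element was in 1.88%, 3.84% and 1.79% and the E-box in 11.9%, 10.8% and 7.15%.

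**Figure D5:**
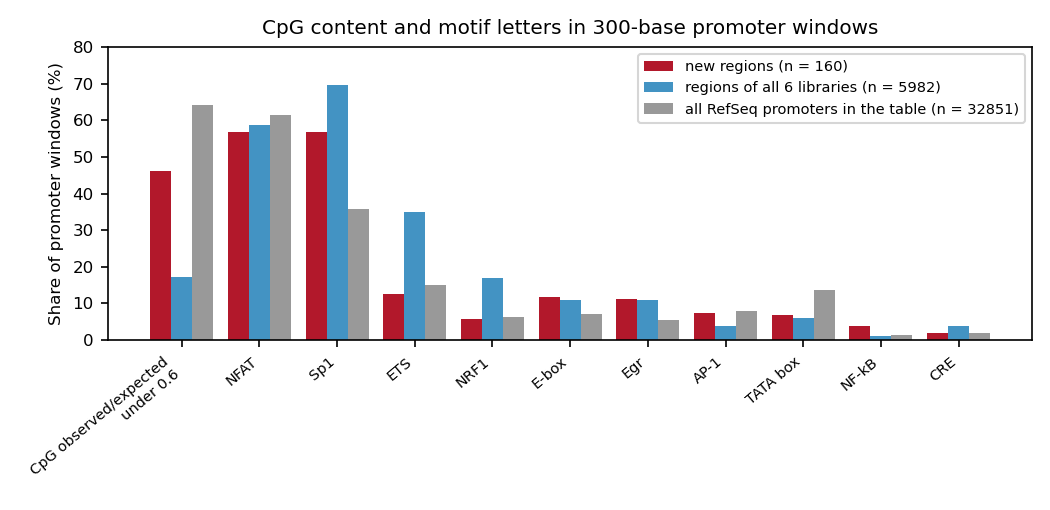
Share of 300-base promoter windows (vertical axis, %) with an observed to expected CpG ratio under 0.6 or with each motif's letters on either strand, for new regions, regions present in all 6 libraries and all RefSeq promoters in the table. The low CpG share of the new regions (46.3%) lies between the other groups, and their ETS and NRF1 shares (12.5% and 5.63%) are close to those of all promoters.

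At the limit of the rule, the regions just inside were those of AI839979, Pik3cd and Itga2, whose weaker 2 h peak had a −log10 q of 1.33, 1.33 and 1.46. The strongest regions just outside, with no NR promoter peak and a peak in 1 of the 2 h libraries, were those of Lgals7 (133 in replicate 2, 1604 bp), Mir7001 (94.3 in replicate 1, 3714 bp) and Snora75 (65.1 in replicate 2, 9007 bp). All 3 held a summit of the other 2 h library in the list of all peaks, and Lgals7 held 1 summit of each of the 6 libraries. Such a summit was inside 29 of the 419 regions of that kind that lacked a promoter peak in replicate 1 and 9 of the 154 that lacked one in replicate 2. The 19 reverse regions included S1pr1, the receptor through which lymphocytes leave lymphoid organs, with 975 and 902 bp at NR and no peak and 633 bp at 30 min, and the noncoding gene Tmevpg1, with 269 and 417 bp at NR.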

How the data were processed

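RNA polymerase II was measured by ChIP-seq in 6 libraries, 2 each of NR, 30 min and 2 h cells; 3 libraries for H3K36me3 and 1 input library were not analysed here. BWA 0.7.13, Picard 1.119, MACS2 2.1.0 and the build mm10 stand in the processing notes of the submitters. Peaks were called per library and each promoter peak was assigned to a gene by the authors. The deposited tables give, per the file headers, the peak width in bp, the signal as pileup (coverage at the summit), the fold enrichment as a ratio to background, and p- and q-values as −log10. These are the authors' values of a peak and were used only to rank or filter within a list. They give no read totals. Depth was read from the lowest background pileup of each deposited library, divided by the pileup of 1 read (0.577 to 0.708 in the scaled replicate 2 libraries and 1 in replicate 1), and limits the precision of every absence.

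Promoter peaks overlapping by at least 1 bp were merged, and called length was summed per region and library. Because the rule selects on NR and 2 h, no model or test was run, and the replicate spread is given as the value of each library. The code of the rule was run on simulated peaks and found the planted number of regions in each 30 min class. The planted regions lay far apart, so split regions and regions joined to a neighbour were not tried. Named members are, per 30 min class, the 10 longest and then the 5 highest in mean fold enrichment percentile at 2 h, and all members of 17 gene lists; microRNA, small nucleolar RNA and clone-named genes were counted but not named, host genes excepted. 8 marker lists were checked. The members and lists were chosen with earlier results of these data known. Of 10419 genes, 10409 matched RefSeq (GRCm38.p6) by gene ID, 99.8% of them at overlapping positions. Alternatives changed the merging, the q limit, the list lengths, the unit and the libraries. Python 3.11.15, pandas 2.3.3, numpy 2.4.6, scipy 1.17.1 and matplotlib 3.10.9 were used.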

Additional observations from a re-analysis of the deposited data

How the results depend on the processing

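No paired analysis was possible because the counts come from no test: the rule selects on NR and 2 h, so a fit of that contrast, with or without the replicate number, was left out. Compared within replicate numbers, a choice made after seeing the data, 1379 regions had a peak at 2 h and not at NR in replicate 1 and 765 in replicate 2, against 150 and 182 for the reverse. Of the 333 new regions, 330 were kept when peaks had to share 50% of the shorter, 310 when no NR summit was allowed inside, 245 when peaks up to 1000 bp apart were merged, 236 by gene, 209 at a −log10 q of at least 5 and 79 with lists of equal length. The number of regions itself moved by at most 1.5 times under these. It ranged from 333 to 1217 when a library was left out, and the reverse count from 19 to 175. The reverse count was 123 with lists of equal length and 69 by gene. Regions without a 30 min peak numbered 61 with 1000 bp merging, and 95 to 326 with a library left out. Those with a peak in 1 numbered 96 with lists of equal length and 209 to 777 with a library left out, and those with both 66 and 38 to 343. Asking a −log10 q of at least 5 of the 2 h peaks alone, an alternative chosen after seeing the data, gave 210 new regions, 39 reverse ones, and 46 and 134 with 0 and 1 30 min peaks. The median length at 2 h (mean of both libraries, 535 bp) was 750 bp as the full merged span and 335.5 to 617.5 bp with a library left out. The median percentile, 11.9, was 12.9 with 1000 bp merging, 10.6 ranked by pileup, 32.0 ranked by −log10 q among all summits and 7.18 to 17.6 with a library left out. No depth-matched reads were analysed here, so a missing peak in a shallow library is not evidence of missing polymerase.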
